A study of Homo sapiens with 4 samples.

Results

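The semaphorins, plexins and neuropilins are a signalling family of 30 genes here: 20 semaphorin genes as ligands, 9 plexin and neuropilin genes as receptors, and CRMP1, which acts inside the cell. The plexins PLXNA3 and PLXNB3 are not among these receptors and were counted apart, in a list of 26 further genes. The 30 genes were chosen by name among 20163 protein-coding genes, not by their methylation. A region of the deposited data was counted as theirs when it overlapped the gene, extended by 5 kb on each side, in the GENCODE annotation of GRCh37, the build also called hg19. DNA methylation was measured by reduced representation bisulfite sequencing (RRBS) in clones of SKOV3, an established human ovarian cancer cell line. In RRBS the enzyme MspI cuts the DNA at CCGG, bisulfite then converts the unmethylated cytosines of short fragments, and the reads tell which CpGs were methylated. Each of 4 clones gave 1 library and none was replicated. Of the clones with mesenchymal (M) phenotype, shC-S had received a control shRNA, and LY75-R-S, labelled Ly75-OV-S, expressed an LY75 cDNA that resists the shRNA against LY75. Of those with epithelial (E) phenotype, sh-LY75-S had LY75 knocked down by shRNA, and LY75-KO-S had it inactivated by CRISPR. LY75-R-S was derived from the knockdown cells, so it carries the shRNA that sh-LY75-S carries, and each clone is a selected population whose own history cannot be told apart from its LY75 state.

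Semaphorins are secreted or membrane-bound guidance proteins that were first studied as repellents of growing axons and that also steer the movement and adhesion of vessel, immune and tumour cells. Plexins are their signalling receptors. Secreted class 3 semaphorins mostly bind a neuropilin, which pairs with a class A plexin, whereas the membrane-bound classes mostly bind plexins directly. Inside the cell, plexins act on small GTPases, integrins and the cytoskeleton, in part through CRMP proteins.

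The authors deposited 3 tables of tiles, which are windows of 1000 bp, in which percent methylation differed between the clones by at least 25 percentage points at a q-value (the adjusted p-value) under 0.01. The tables compare shC-S with sh-LY75-S (the knockdown comparison), LY75-R-S with LY75-KO-S (the knockout comparison) and, as the mix, both M clones with both E clones. They hold a difference and its p- and q-value for each listed tile, and no methylation level or read number per library. The depth behind each value is therefore unknown, no replicate error can be given, and the q-values compare libraries rather than conditions. Differences are given in percentage points as E minus M, so that a hypermethylated tile is one with more methylation in the E clone. For the knockdown comparison this order was settled with 9 of 9 genes whose direction the study states. For the knockout comparison it follows the grouping of the mix, and all its signs would be opposite if those clones had been grouped the other way round. The deposited names put the M clone first in the knockdown comparison and the E clone first in the knockout comparison. Read by name alone, the knockout differences would be M minus E, so their order is not settled. The LY75 gene itself had 3 listed tiles in the knockdown comparison, from -28.5 to 87.7 points, and 1 in the knockout comparison, at -100 points, which gives no check of its knockdown.

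Of the 72455 tiles listed in any of the tables, 169 belonged to the semaphorin, plexin and neuropilin genes. A tile was called promoter when it lay within 2 kb of a transcription start site (TSS) of the gene, gene body when it lay elsewhere in the gene, and flank otherwise. Of the 169 tiles, 111 were listed in 1 table, 51 in 2 tables and 7 in all 3. At 15 of them the promoter or an exon of another gene also lay in the tile, and 11 held no CpG that MspI fragments of 40 to 220 bp would bring within a read of 50 bp.

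Windows of 200 bp from 8 of these tiles are given 5′ to 3′ on the plus strand of GRCh37, with each CpG in capitals. They were placed outside annotated untranslated sequence, where the rest of the tile holds most CpGs near MspI cuts. The SEMA3E window (chr7:83278456-83278655) and the SEMA4A window (chr1:156119420-156119619) are shown because their promoter tiles were listed with opposite signs in the single comparisons. The SEMA3E window has 5 CpGs, none of them within reach of such fragments, and the SEMA4A window has 7, of which 3 are. The whole SEMA3E tile has 16 CpGs, and the 4 of them within reach lie outside the window.
SEMA3E promoter: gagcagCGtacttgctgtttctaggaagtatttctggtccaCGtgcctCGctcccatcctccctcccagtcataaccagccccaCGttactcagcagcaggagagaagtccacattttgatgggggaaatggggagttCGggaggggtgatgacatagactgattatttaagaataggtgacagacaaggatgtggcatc
SEMA4A promoter: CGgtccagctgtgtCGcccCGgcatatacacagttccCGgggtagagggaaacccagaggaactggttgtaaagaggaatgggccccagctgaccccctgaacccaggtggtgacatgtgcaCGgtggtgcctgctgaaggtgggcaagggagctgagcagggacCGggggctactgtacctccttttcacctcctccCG

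The next windows come from receptor promoter tiles with a difference of 100 points in the knockdown comparison. They lie near NRP1 (chr10:33626016-33626215, 13 CpGs), NRP2 (chr2:206550334-206550533, 23 CpGs) and PLXNB2 (chr22:50747037-50747236, 6 CpGs). The NRP2 window is the most CpG-rich of the 8 and the PLXNB2 window lies next to the neighbouring gene DENND6B, an exon of which also falls in that tile.
NRP1 promoter: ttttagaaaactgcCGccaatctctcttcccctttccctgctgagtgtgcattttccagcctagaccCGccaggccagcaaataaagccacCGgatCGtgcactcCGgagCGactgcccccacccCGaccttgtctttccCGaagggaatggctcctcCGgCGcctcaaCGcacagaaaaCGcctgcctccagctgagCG
NRP2 promoter: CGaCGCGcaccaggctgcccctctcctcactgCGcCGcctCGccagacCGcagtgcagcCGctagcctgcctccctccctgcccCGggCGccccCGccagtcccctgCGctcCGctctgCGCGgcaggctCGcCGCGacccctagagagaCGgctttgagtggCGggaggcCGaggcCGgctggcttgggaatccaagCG
PLXNB2 promoter: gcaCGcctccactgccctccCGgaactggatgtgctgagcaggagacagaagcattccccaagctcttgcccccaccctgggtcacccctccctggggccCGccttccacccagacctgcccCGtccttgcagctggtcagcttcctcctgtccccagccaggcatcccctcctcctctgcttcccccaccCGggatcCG

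The last windows are from gene bodies. Those of PLXNB1 (chr3:48462001-48462200) and NRP1 (chr10:33552414-33552613) had the same sign in both single comparisons with large differences, and that of PLXNA2 (chr1:208285155-208285354) had opposite signs. The PLXNB1 tile has 2 and the NRP1 tile 4 CpGs within reach of such fragments, as computed from the genome. The number of positions that were read there is unknown.
PLXNB1 gene body: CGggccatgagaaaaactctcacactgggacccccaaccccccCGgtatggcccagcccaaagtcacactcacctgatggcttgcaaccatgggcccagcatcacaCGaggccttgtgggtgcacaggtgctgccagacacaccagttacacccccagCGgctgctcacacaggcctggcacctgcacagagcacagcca
NRP1 gene body: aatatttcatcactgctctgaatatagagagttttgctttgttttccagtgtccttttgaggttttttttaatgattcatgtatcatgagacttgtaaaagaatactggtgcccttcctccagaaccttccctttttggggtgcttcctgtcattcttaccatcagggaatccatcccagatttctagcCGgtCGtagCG
PLXNA2 gene body: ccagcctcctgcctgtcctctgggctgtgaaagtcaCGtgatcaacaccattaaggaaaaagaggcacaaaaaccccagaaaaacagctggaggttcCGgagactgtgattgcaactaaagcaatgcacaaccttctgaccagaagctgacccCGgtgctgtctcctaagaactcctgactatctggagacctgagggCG

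Listed tiles of the family were counted in each comparison, and NRP2 had the densest in the knockdown comparison. In the knockdown comparison, 116 tiles in 28 of the 30 genes were listed among 51243 tiles in all. In the knockout comparison there were 65 tiles in 23 genes, among 28282, and in the mix 53 tiles in 24 genes, among 20986. The share of all protein-coding genes with a listed tile was not counted, so the gene numbers show nothing particular to the family. Because long genes offer more tiles, counts were set against the 769 tiles of the family that MspI fragments reach. Of these, 14.3% were listed in the knockdown comparison, against a background of 12.4% over all reachable tiles of the genome. The shares were 7.80% against 6.65% in the knockout comparison and 6.37% against 5.16% in the mix. As a whole the family thus stood slightly above the background, but its promoters did not share in this. Reachable gene body tiles were listed at 15.3%, 9.22% and 7.13% (knockdown, knockout, mix), against 10.5%, 6.34% and 4.35% over protein-coding gene bodies. Reachable promoter tiles were listed at 15.2%, 3.79% and 4.55%, against 15.0%, 5.42% and 6.41% over protein-coding promoters. Tiles of a gene are not independent, and this was not tested.

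Single genes spread widely around these shares. NRP2, a co-receptor for class 3 semaphorins, had the largest share in the knockdown comparison, with 34.8% of its 23 reachable tiles listed. SEMA6D, a transmembrane ligand of class A plexins, followed with 25.8% of 31, then SEMA4G with 25% of 8 and SEMA3F with 23.8% of 21. At the other end, SEMA6C and SEMA7A had no listed tile among 15 and 16, SEMA4D had 2.22% of 45 and PLXNA1 2.44% of 41. In the knockout comparison the order was another: PLXNA4 led with 19.4% of 62, before SEMA7A with 18.8% of 16 and SEMA3G with 18.2% of 11. SEMA7A, a membrane-anchored ligand of PLXNC1, had none in the knockdown comparison, and PLXNC1 had none here among 22. With backgrounds of 12.4% in the knockdown and 6.65% in the knockout comparison, a gene with so few reachable tiles may have none listed. No link between these genes can be read from this, and none was tested.

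**Figure D1:**
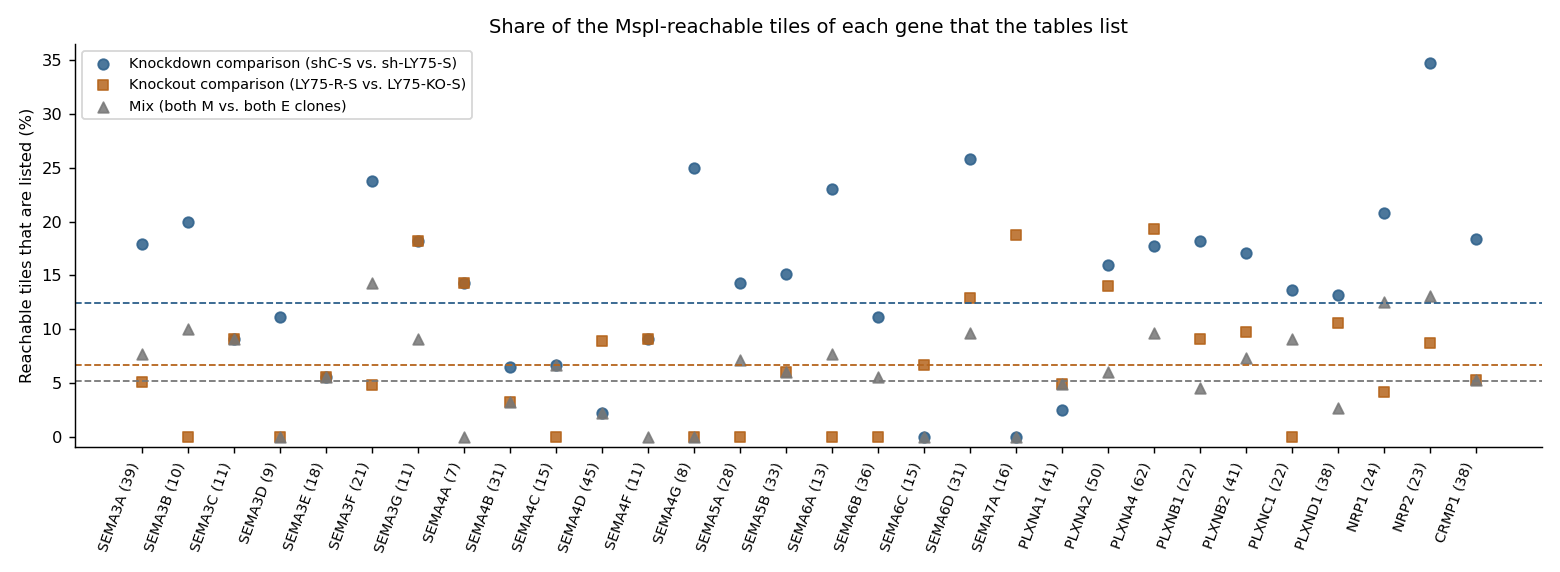
Percent of each gene's MspI-reachable tiles (number in parentheses) that each table lists, with dashed lines at the genome-wide shares of 12.4% (the knockdown comparison), 6.65% (the knockout comparison) and 5.16% (mix). NRP2 stands highest at 34.8% in the knockdown comparison, and SEMA6C and SEMA7A lie at 0 there.

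In the knockdown comparison the family's tiles went both ways, 65 hypermethylated and 51 hypomethylated in sh-LY75-S. The hypermethylated share was 56.0% (95% Wilson interval 47.0% to 64.7%, counting error only), against 64.7% over all listed tiles. The median absolute difference was 53.9 points against 50 over all tiles, and 62.1% of the tiles reached 50 points against 53.2% over all. At 13 tiles the difference was the full 100 points, from no methylation to complete methylation or the reverse, which is 11.2% of the family's tiles against 13.1% of all. The largest q-value among the family's tiles was 0.000827 in this table.

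**Figure D2:**
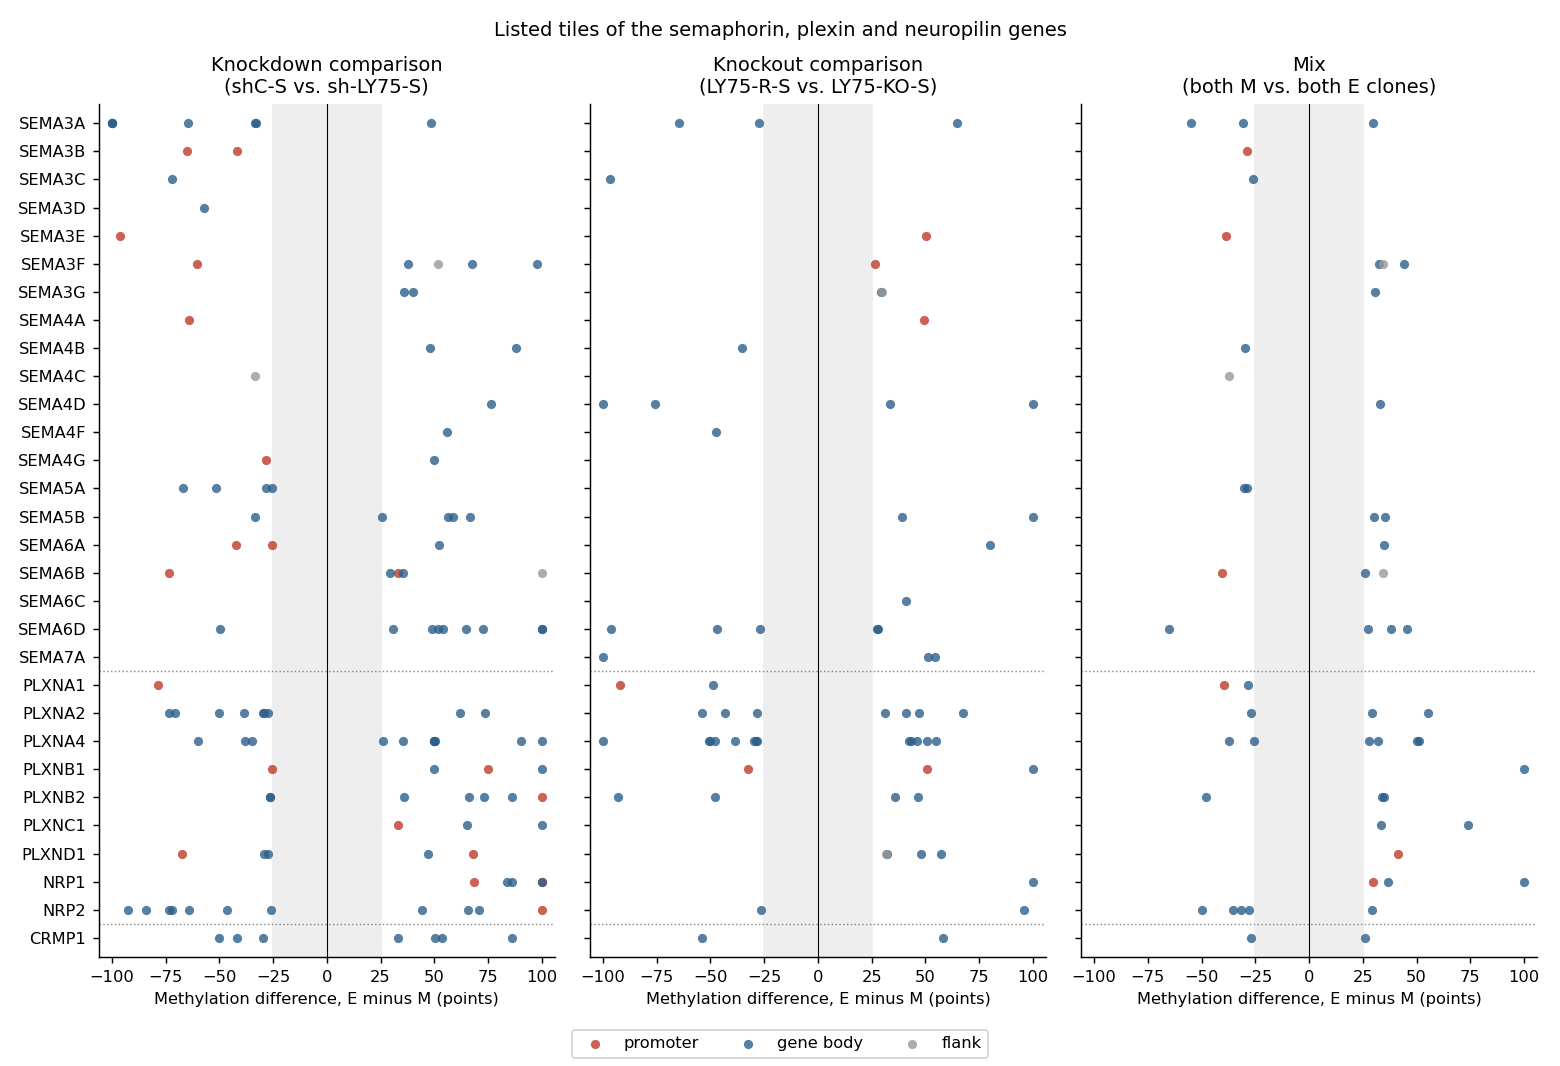
Methylation difference (percentage points, E minus M) of every listed tile of the 30 genes in each table, coloured by position, with ligands, receptors and CRMP1 separated by dotted lines and the range that the tables leave out in grey. In the knockdown comparison the promoter tiles of the ligands lie on the hypomethylated side except 1 of SEMA6B, and the neuropilin promoter tiles lie on the hypermethylated side.

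The listed promoter tiles of the ligands were nearly all hypomethylated in sh-LY75-S. They came from 7 of the 20 semaphorin genes and were 13.0% of the ligands' 77 reachable promoter tiles, against 15% over the promoters of all protein-coding genes. Of the 10 tiles, 9 had less methylation in sh-LY75-S than in shC-S, and 6 of the 7 genes had hypomethylated promoter tiles alone. The hypermethylated share was 10% (interval 1.79% to 40.4%), against 55.6% over the promoter tiles of all protein-coding genes. The lowest value was at SEMA3E, a secreted ligand that binds PLXND1 without a neuropilin, where the tile over the TSS (chr7:83278001-83279000) was at -96 points. SEMA3B and SEMA3F, secreted semaphorins on the short arm of chromosome 3 that have been described as tumour suppressors, were hypomethylated as well. SEMA3B had adjacent tiles at -41.6 points (chr3:50310001-50311000, over an internal start) and -64.8 points (chr3:50311001-50312000), each with 56 CpGs. Their midpoints lie 5511 and 6511 bp downstream of the gene's first start, where no tile was listed. SEMA3F was at -60.3 points in a tile downstream of its start (chr3:50194001-50195000) that also lies at the promoter of SEMA3F-AS1.

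Among the membrane-bound semaphorins, SEMA4A, SEMA4G, SEMA6A and SEMA6B had listed promoter tiles, and the class 5 and class 7 genes had none. SEMA4A, a ligand known from immune cells, was at -64.2 points (chr1:156119001-156120000). SEMA4G was at -28.3 points in a tile with 71 CpGs (chr10:102729001-102730000). SEMA6A, a ligand of PLXNA2 and PLXNA4, had promoter tiles at -42.3 and -25.4 points on either side of its start, both shared with the promoter of SEMA6A-AS2. SEMA6B was the exception, with a tile of 56 CpGs at -73.2 points downstream of its TSS (chr19:4580001-4581000) and a tile of 20 CpGs at 33.1 points upstream of it (chr19:4583001-4584000). At 4 of the 10 ligand promoter tiles the promoter of another gene lay in the same tile.

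The listed promoter tiles of the receptors lay mostly on the other side. They were 20.8% of the receptors' 48 reachable promoter tiles, against the same 15%. Of 10 tiles in 7 receptor genes, 7 were hypermethylated in sh-LY75-S, which is 70% (interval 39.7% to 89.2%), with the same background of 55.6%. All 3 neuropilin promoter tiles were among them. NRP1, the co-receptor of SEMA3A and of vascular endothelial growth factor, had 68.5 points in the tile over its TSS (chr10:33625001-33626000), which holds 87 CpGs, and 100 points in the tile upstream of it (chr10:33626001-33627000). NRP2, the co-receptor of SEMA3F, had 100 points in a tile of 85 CpGs (chr2:206550001-206551000). This tile begins 1986 bp downstream of an internal start, at the edge of the 2 kb limit for promoters.

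Plexin promoters were mixed. PLXNB2, a receptor of class 4 semaphorins, had 100 points in a tile upstream of its TSS (chr22:50747001-50748000). PLXNB1, the receptor of SEMA4D, had 75 points in a tile of 17 CpGs downstream of its first start (chr3:48469001-48470000) and -25.4 points in the tile of 60 CpGs over that start (chr3:48471001-48472000). PLXND1, the receptor of SEMA3E, also had both signs: 68.0 points near an internal start (chr3:129276001-129277000) and -67.1 points upstream of its first start (chr3:129326001-129327000). PLXNC1, the receptor of SEMA7A, was at 33.3 points. PLXNA1, a partner of the neuropilins, was the one receptor with hypomethylated promoter tiles alone, at -78.6 points (chr3:126703001-126704000). No promoter tile of PLXNA2, PLXNA4 or CRMP1 was listed.

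**Figure D3:**
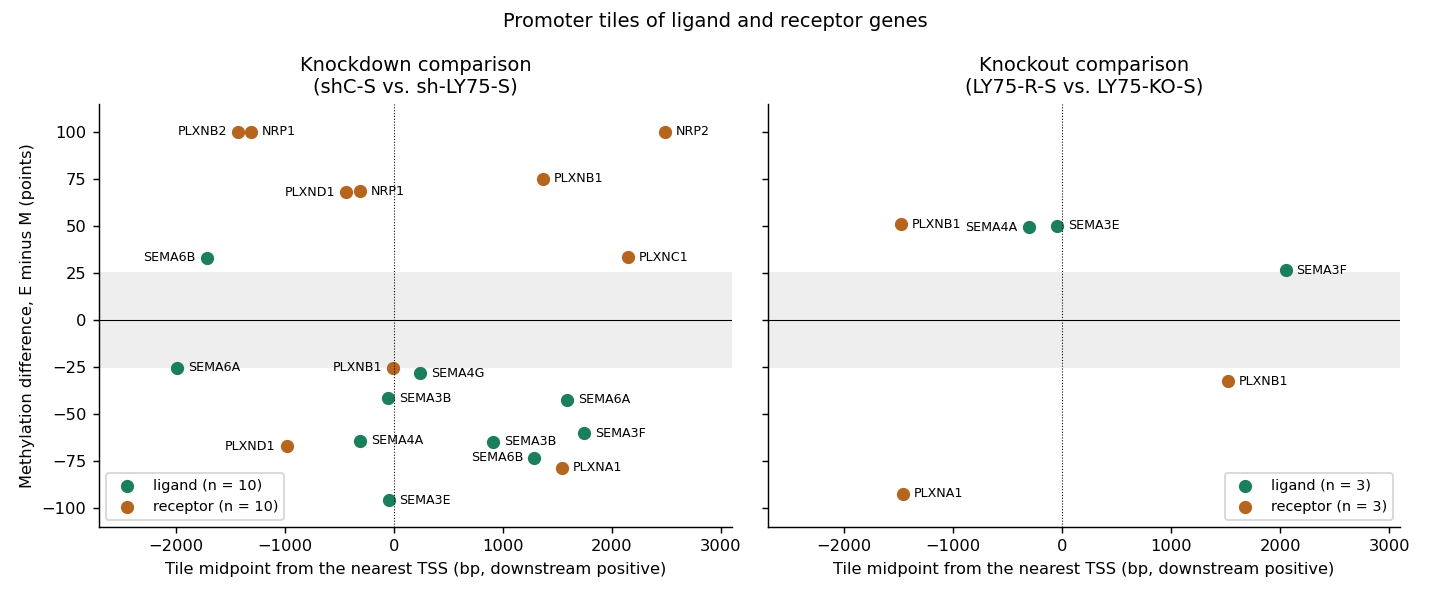
Methylation difference (percentage points, E minus M) of each listed promoter tile of a ligand or receptor gene against the distance of the tile's midpoint from the nearest TSS, for both single comparisons. In the knockdown comparison, 9 of 10 ligand tiles lie under 0 and 7 of 10 receptor tiles above it, and the 3 ligand tiles of the knockout comparison lie above 0.

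In gene bodies the ligands and receptors lay closer together. In the knockdown comparison, 26 of 40 gene body tiles of the ligands (65%) and 25 of 46 of the receptors (54.3%) were hypermethylated, against 64.2% over the gene body tiles of all protein-coding genes. Over all family tiles of this table, promoters were hypermethylated in 40% and gene bodies in 59.1%, a difference of -19.1 points with an interval from -39.6 to 4.50 (Newcombe, counting error only), which includes 0. These intervals take no account of tiles that share a gene.

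Among the ligands, the direction of the gene body tiles varied by class. The class 3 semaphorins had 6 hypermethylated and 8 hypomethylated tiles. SEMA3A, the prototype repellent of axons, had 6 hypomethylated tiles and 1 hypermethylated tile, all intragenic. Of these, 3 were at -100 points and the hypermethylated one at 48.6 points. SEMA3C, which guides cells of the heart's outflow tract, had 1 tile, at -71.9 points over a coding exon, and SEMA3D had 1, at -57.1 points. SEMA3F was hypermethylated in its gene body at 38.0, 67.6 and 97.6 points, the last 2 in adjacent tiles, whereas its promoter was hypomethylated. SEMA3G had coding exon tiles at 35.9 and 40 points.

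The class 4 semaphorins had 5 gene body tiles, all hypermethylated. These were SEMA4B at 48.1 and 87.9 points, SEMA4D, the ligand of PLXNB1, at 76.3 points, SEMA4F at 55.8 points and SEMA4G at 50 points. SEMA4C, a ligand of PLXNB2, had a single tile in its flank at -33.2 points, which is a promoter tile of the neighbouring gene ANKRD39. Of the class 5 semaphorins, transmembrane ligands with thrombospondin repeats, SEMA5A had 4 hypomethylated tiles from -66.7 to -25.5 points. SEMA5B had 4 hypermethylated tiles from 25.8 to 66.8 points and 1 at -33.5 points. The class 6 semaphorins had 11 hypermethylated and 1 hypomethylated gene body tile. SEMA6D carried most of these, with 8 hypermethylated tiles from 30.6 to 100 points, 2 of them at 100, and 1 tile at -49.5 points. SEMA6A had 1 gene body tile at 52.1 points and SEMA6B had 29.4 and 35.3 points. Flank tiles of SEMA3F at 51.8 points and of SEMA6B at 100 points were promoter tiles of the neighbouring genes GNAT1 and LRG1.

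The receptors had large gene body differences in both directions. NRP1 was hypermethylated at every listed tile, with gene body tiles at 83.9, 86.4 and 100 points, the first 2 adjacent (chr10:33552001-33554000). NRP2 had 7 hypomethylated and 3 hypermethylated gene body tiles, from -92.6 to 70.7 points. Most of them thus differed in sign from its promoter tile at 100 points, which counts as promoter only at the edge of the limit. A run of 4 adjacent NRP2 tiles (chr2:206616001-206620000) changed sign within itself, with 70.7, 44.1, -73.6 and 65.6 points in that order.

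PLXNA2 and PLXNA4 are the receptors of SEMA6A and had gene body tiles alone. PLXNA2 had 2 hypermethylated tiles, at 62.0 and 73.6 points, and 7 hypomethylated tiles, from -73.5 to -27.2 points. PLXNA4 had 8 hypermethylated and 3 hypomethylated tiles, from -59.7 to 100 points. Gene bodies of the class B plexins had 6 hypermethylated tiles of 8: PLXNB1 was at 50 and 100 points, and PLXNB2 at 35.9, 66.0, 73.2 and 86.1 points, next to -26.2 and -26.5 points near its 3′ end. PLXNC1 was at 65.2 and 100 points. PLXND1 had 47.2 points and a pair of tiles at -27.5 and -29.3 points. CRMP1, which carries the SEMA3A signal to the cytoskeleton, had 4 hypermethylated and 3 hypomethylated tiles in its gene body, from -50 to 86.0 points. The highest of them also lies over an exon of EVC.

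In the knockout comparison, 36 tiles of the family were hypermethylated in LY75-KO-S and 29 hypomethylated. The hypermethylated share of 55.4% (interval 43.3% to 66.8%) was near the 54.7% of all listed tiles. The median absolute difference was 48.0 points against 41.9 over all tiles, and 44.6% reached 50 points against 37.5%. The family had only 6 promoter tiles in this comparison, 4 of them hypermethylated, with a background of 53.3%. In gene bodies 30 of 57 tiles were hypermethylated (52.6%), with a background of 55.8%.

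The ligand promoters of this comparison were hypermethylated in 3 of 3 tiles: SEMA3E at 50.2 points, SEMA4A at 49.4 points and SEMA3F at 26.5 points. All 3 genes were hypomethylated at their promoters in the knockdown comparison, and for SEMA3E and SEMA4A it was the same tile. Of the receptors, PLXNA1 was hypomethylated in a tile upstream of its TSS, at -92.3 points, where the knockdown comparison had the tile downstream of the TSS at -78.6 points. PLXNB1 had 50.8 and -32.7 points around an internal start, and the latter tile holds no CpG within reach of MspI fragments of the stated size. No neuropilin promoter tile was listed here.

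Gene body tiles of the ligands were divided, 12 hypermethylated and 11 hypomethylated. SEMA3A was at -64.5, -27.5 and 64.8 points and SEMA3C at -96.8 points. SEMA3G had a coding exon tile at 29.2 points and a flank tile at 29.9 points. SEMA4D had 4 tiles with both extremes, at 100 and 33.3 points and at -75.8 and -100 points, while SEMA4B was at -35.1 points and SEMA4F at -47.2 points. SEMA5B was hypermethylated at 39.1 and 100 points, SEMA6A at 80 points and SEMA6C at 41.2 points. SEMA6D ranged from -96.2 to 27.8 points over 5 tiles. SEMA7A had -100 points near its 3′ end and 54.5 and 51.1 points further upstream. SEMA3B, SEMA3D, SEMA4C, SEMA4G, SEMA5A and SEMA6B had no listed tile.

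Of the receptors, PLXNA4 had the most tiles in this comparison, 5 hypermethylated and 8 hypomethylated, from -100 to 54.9 points. PLXNA2 had 4 hypermethylated and 3 hypomethylated tiles, from -54 to 67.4 points, and PLXNA1 a coding exon tile at -48.9 points. PLXND1 was hypermethylated at all 4 tiles, from 31.7 to 57.1 points. PLXNB2 had adjacent hypomethylated tiles at -48.0 and -92.9 points (chr22:50732001-50734000) between hypermethylated tiles at 36.0 and 46.7 points, and PLXNB1 a tile at 100 points. NRP1 had 1 tile, at 100 points, and NRP2 had 2, at 96 and -26.6 points. CRMP1 was at 58.3 and -54 points.

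The single comparisons share no library, although LY75-R-S was made from sh-LY75-S cells. They shared 15 tiles of the family in 9 genes, which is 12.9% of the family's tiles in the knockdown comparison and 23.1% of those in the knockout comparison. Direction was the same in 8 of the 15 (53.3%, interval 30.1% to 75.2%), and 52.6% of the 8345 tiles shared over the genome had the same direction, so the family was near the background. Among ligands 1 of 5 shared tiles had the same direction, and among receptors 6 of 9. With these numbers no difference between ligands and receptors can be stated.

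The tiles with the same sign were mostly receptor gene bodies. PLXNB1 had 100 points in both comparisons over a coding exon (chr3:48462001-48463000), and NRP1 had 83.9 and 100 points over a coding exon (chr10:33552001-33553000). PLXNA4 had 3 such tiles: 50 and 54.9 points (chr7:132266001-132267000), 50 and 50.9 points (chr7:132193001-132194000), and 25.9 and 42.3 points (chr7:131872001-131873000). CRMP1 was at 33.3 and 58.3 points and SEMA6D at 51.8 and 27.8 points. NRP2 was the single gene with a tile hypomethylated in both, at -26.1 and -26.6 points in an intron tile of 53 CpGs next to its promoter tile (chr2:206551001-206552000).

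The tiles with opposite signs included both shared promoter tiles. SEMA3E was at -96 points in the knockdown comparison and 50.2 points in the knockout comparison, and SEMA4A at -64.2 and 49.4 points. Windows from both tiles are printed above. That of SEMA3E holds no CpG within reach of MspI fragments of the stated size, whereas its tile holds 4 outside the window. PLXNA2 had such a tile at -70.5 and 46.9 points, whose window is also printed above, and another at -29.4 and 67.4 points. The remaining opposite tiles had the positive value in the knockdown comparison: PLXNA4 at 100 and -28.9 points, and SEMA6D at 54.0 and -46.9 points and at 30.6 and -27.0 points. Were the order of the knockout comparison the other way round, same and opposite would change places and 46.7% would have the same direction.

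**Figure D4:**
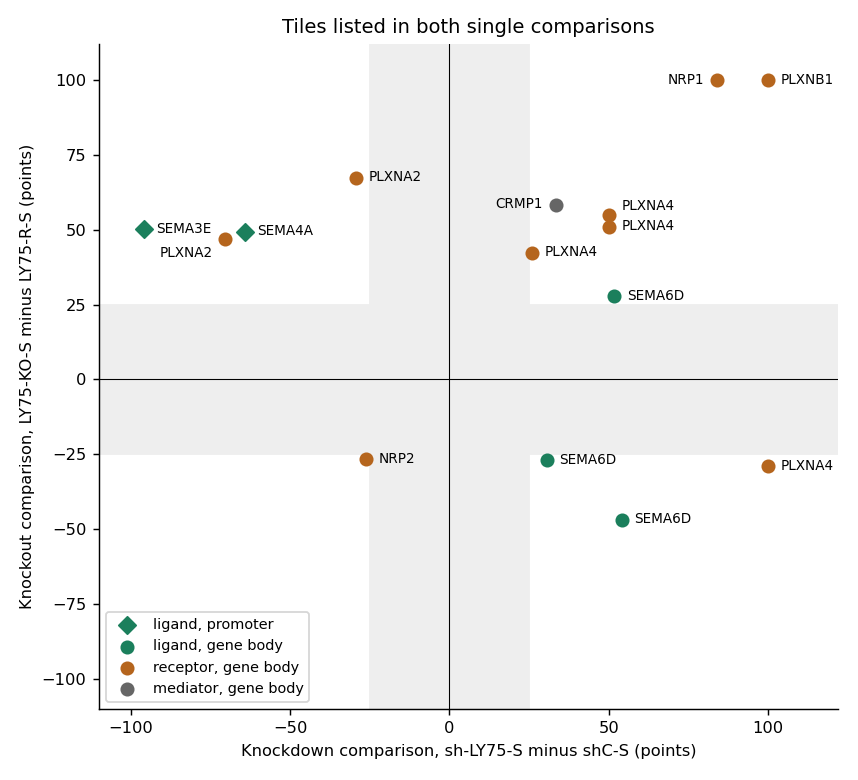
The 15 family tiles listed in both single comparisons, with the difference in the knockdown comparison on the horizontal axis and that in the knockout comparison on the vertical axis, both in percentage points as E minus M. Tiles with the same sign (8) lie in the upper right and lower left, tiles with opposite signs (7) in the other corners, among them the promoter tiles of SEMA3E and SEMA4A.

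The mix uses the same 4 libraries as the single comparisons, so its values are set beside theirs and are not further evidence. Of its 53 tiles of the family, 34 were also listed in the knockdown comparison alone, 9 in the knockout comparison alone and 7 in both, and 3 were listed in the mix alone. Hypermethylated tiles numbered 31 and hypomethylated 22, a share of 58.5% (interval 45.1% to 70.7%) with a background of 65%. The median absolute difference was 33.8 points against 36.9 over all tiles, and 17.0% reached 50 points against 21.6%. Of the family's promoter tiles in the mix 2 of 6 were hypermethylated, with a background of 55.3%, and of its gene body tiles 27 of 44, with a background of 65%.

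At the promoters the mix listed SEMA6B at -40.4 points, SEMA3E at -38.5 points and SEMA3B at -29.0 points among the ligands. Among the receptors it listed PLXND1 at 41.6 points, NRP1 at 29.6 points and PLXNA1 at -39.3 points. SEMA4A, whose tile had opposite signs in the single comparisons, was not listed. NRP1 and PLXNB1 had the largest values of the family in the mix, at 100 points in the gene body tiles where both single comparisons were at or above 83.9 points. PLXNC1 followed at 74.1 points, SEMA6D at -65.3 points and PLXNA2 at 55.5 points, each from a tile listed in 1 of the single comparisons. The PLXNA4 tiles with the same sign in both single comparisons were at 51.0, 50.3 and 31.9 points, and the NRP2 tile at -28.2 points.

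The comparison of ligands with receptors over all their listed tiles gave intervals that included 0 in each table. The ligands minus receptors difference in the hypermethylated share was -2.43 points (interval -20.4 to 15.7) in the knockdown comparison, 6.48 points (-17.5 to 29.1) in the knockout comparison and -5.54 points (-30.3 to 20.2) in the mix. Among the 9 tiles of the mix at or above 50 points, 2 of ligands and 7 of receptors, it was -85.7 points (-97.4 to -10.2). That interval is without 0, but it rests on 2 ligand tiles and treats tiles of a gene as independent. Promoters minus gene bodies gave 14.0 points (-24.7 to 40.9) in the knockout comparison and -28.0 points (-55.0 to 11.5) in the mix. The sign of the promoter difference varied between tables under the order taken for the knockout comparison, and these intervals included 0. With 1 tile per gene and position in the knockdown comparison, promoters minus gene bodies was -35.4 points (-60.0 to -3.63), which does not include 0. That interval treats the promoter and gene body tiles of the same gene as independent. Over all protein-coding genes promoters also had the lower share, 55.6% against 64.2% in gene bodies, so 0 is not the background difference. With promoters taken as 5 kb around a TSS the family's difference was 1.24 points (-19.0 to 20.5). The split by both role and position was seen in the knockdown comparison, with ligand promoters at 1 of 10 and receptor promoters at 7 of 10. With promoters taken as 5 kb around a TSS the shares were 35.7% of 14 ligand tiles and 75% of 16 receptor tiles. It had the opposite order in the knockout comparison, at 3 of 3 and 1 of 3, under the order of subtraction taken there. Were that order the other way round, the split would run as in the knockdown comparison.

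**Figure D5:**
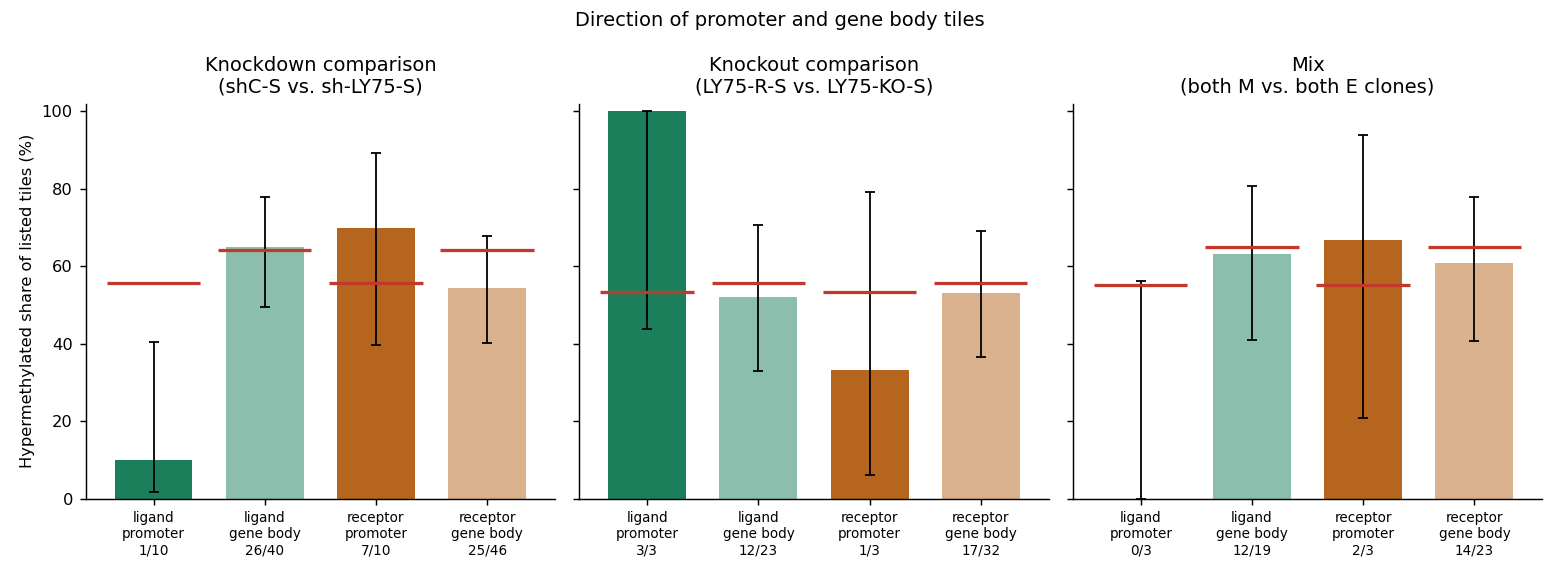
Hypermethylated share (%) of the listed promoter and gene body tiles of ligand and receptor genes in each table, with the number hypermethylated of the number listed under each bar, 95% Wilson intervals (counting error only) and red lines at the share over all protein-coding genes. Ligand promoters in the knockdown comparison (1 of 10) lie under the line at 55.6%.

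The tiles of the family also differed in what they cover. Of the 116 tiles of the knockdown comparison, 75 lay in introns, 27 touched coding exons, and 6 touched untranslated exons but no coding exon. Intron tiles were hypermethylated in 45 cases and hypomethylated in 30, coding exon tiles in 14 and 13, and untranslated exon tiles in 1 and 5. The last group held the starts of SEMA3E, SEMA4A, SEMA4G and PLXNB1 and the end of PLXNB2 on the hypomethylated side, and the start of NRP1 on the other. No background share was set beside these groups. CpG content did not separate the directions, with a median of 18 CpGs in hypermethylated and 16 in hypomethylated tiles of the family, and 20 and 18 over all listed tiles.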

How the data were processed

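RRBS libraries of 4 SKOV3 clones, 1 per clone, were read in single reads of 50 bp. Per the labels, the authors aligned them to hg19 with Bismark, which the submitters' processing notes give as version 0.16.1, and compared them with methylKit (version not given in the sources used here). The labels name Trimmomatic for the trimming and the processing notes Trim Galore 0.4.1. The authors' deposited tables hold, for each tile of 1000 bp past 25 points and a q-value under 0.01, the p-value, the q-value and the difference in percent methylation. The minimum coverage, and how the libraries of the mix were combined, are not given in the sources used here. No counts per library were used here, so no test between conditions was made. As reads may be PCR copies of the same molecule, intervals cover counting error only.

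Genes, starts and exons came from basic transcripts of GENCODE release 44 on GRCh37. Tiles reachable by MspI were computed from that genome (fragments of 40 to 220 bp, reads of 50 bp at both ends). The background is the same count over all listed or reachable tiles. Although the members were chosen by name, they and the lists were chosen with earlier results of these data known. Named with values were, per comparison, each member's promoter tile with the largest absolute difference, otherwise its largest gene body tile, and every tile in all 3 tables. Others were added after their values were seen. A pathway list of 26 further genes was counted the same way. Counting was tested on simulated data. Python 3.11.15, pandas 2.3.3, statsmodels 0.14.6, pysam 0.24.0 and matplotlib 3.10.9 were used. Bisulfite PCR, expression and protein experiments were not analysed here.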

Additional observations from a re-analysis of the deposited data

Results flagged for a closer look

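At 7 tiles of the family the single comparisons had opposite signs, with the value in the knockdown comparison given first here. This holds under the order of subtraction taken for the knockout comparison, which is not settled. The difference between the comparisons was not tested, as each rests on 1 library per clone. Promoter tiles of SEMA3E (-96 and 50.2 points) and SEMA4A (-64.2 and 49.4 points) were among them. Of the receptors, PLXNA2 had 2 such gene body tiles (-70.5 and 46.9 points, and -29.4 and 67.4 points) and PLXNA4 had 1 (100 and -28.9 points). SEMA6D had 2 in its gene body (54.0 and -46.9 points, and 30.6 and -27.0 points).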

How the results depend on the processing

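Of 72 results recomputed under another choice, 56 stayed near the reported value (counts within a factor set beforehand, shares within the reported interval), and 16 did not. A minimum of 50 or 70 points left 72 and 36 tiles of the family in the knockdown comparison, 29 and 14 in the knockout comparison, and 9 and 3 in the mix, fewer by construction. The hypermethylated share became 65.3% at 50 points in the knockdown comparison, and 42.9% and 100% at 70 points in the knockout comparison and the mix. Ligands minus receptors became -33.3 points in the knockdown comparison and -31.0 in the mix with 1 tile per gene. It was -85.7 (-97.4 to -10.2) in the mix at 50 points (2 ligand and 7 receptor tiles), where the interval no longer included 0. Promoters minus gene bodies in the knockdown comparison was -35.4 (-60.0 to -3.63) with 1 tile per gene and 1.24 within 5 kb of a TSS. Of tiles listed in both single comparisons, 80% of 5 had the same direction at 50 points in both. The ligand promoter share in the knockdown comparison, whose alternatives were chosen after seeing the data, fell to 0% within 1 kb of a TSS (6 tiles), at 50 points (5 tiles) and with 1 tile per gene (7 genes), and rose to 35.7% within 5 kb of a TSS (14 tiles). The cause of these shifts was not tested. With the order of the knockout comparison reversed, its hypermethylated share was 44.6%. Promoters minus gene bodies at 50 points could not be computed in the mix, which has no promoter tile there. No paired analysis was possible because each clone had 1 library. Depth per tile is unknown, and a tile that is not listed may have been covered too thinly or differed by less than 25 points.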

Other observations

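Partners and effectors of semaphorin signalling outside the 30 genes were counted from a list of 26 genes, with 639 reachable tiles. The list includes the plexins PLXNA3 and PLXNB3, which are in none of the receptor counts above. In the knockdown comparison 69 tiles in 22 genes of the list were listed, 36 hypermethylated and 33 hypomethylated (52.2%, against 64.7% over all listed tiles). Of the reachable tiles 10.5% were listed, against 12.4% over the genome. In the knockout comparison there were 32 tiles in 17 genes, 13 hypermethylated (40.6% against 54.7%), and in the mix 26 tiles in 15 genes, 19 hypermethylated (73.1% against 65%). The listed shares were 4.85% against 6.65% and 4.07% against 5.16%. Promoter tiles were listed for 14 of the genes in the knockdown comparison, and the largest was hypomethylated in 9. Over all protein-coding genes 55.6% of the listed promoter tiles of that comparison were hypermethylated, a share over every tile rather than the largest per gene. NRCAM, an adhesion molecule that associates with neuropilins, was at -100 points there, DPYSL5, a relative of CRMP1, at -90.7 points, and FES, a kinase downstream of SEMA3A, at -55 points. MICAL2, an oxidase that acts on actin filaments, was at 100 points, FARP1, an exchange factor that binds plexins, at 56.8 points, and the receptors PLXNB3 and PLXNA3 at 66.7 and -52.5 points. In the knockout comparison, promoter tiles were listed for 6 genes. FYN, a kinase in the SEMA3A pathway, was at 35.2 points there and at -36.6 points in the knockdown comparison, and RHOD, a small GTPase, at 51.9 and -50 points. MET, KDR, RRAS and RRAS2 had no listed tile in any table.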
